A study of Mus musculus with 3 samples.

Results

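Erythroblastic islands are clusters of maturing red cell precursors around a central macrophage, and the 10 genes described here are those by which such a macrophage is recognised or does its work. They were chosen by name: Siglec1 and Adgre1 encode CD169 and F4/80, surface proteins on which the cells were sorted, and Vcam1, Palld, Mertk, Axl, Cd163, Mrc1, Spic and Trf are the 8 island genes. All 10 were among the 11419 genes listed in the files. The cells came from the marrow of tibiae and femurs of C57BL/6 mice, an inbred strain, with no treatment, genotype or age in the labels. They were sorted as Cd11b+F4/80+CD169+CX3CR1neg, and 3 libraries of messenger RNA were made from this 1 population. There was no second population, so the members can be set against a fixed level, against each other and between libraries. The labels call the cells macrophages and give n = 3 without saying if each library had a mouse of its own. The p-values therefore reflect library-to-library spread that could be technical. In the main test, each gene's spread was drawn toward that of genes of like level. Its SEs and p-values thus do not measure the agreement of a gene's own 3 libraries alone.

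In the island, the macrophage holds erythroblasts by adhesion molecules, takes up the nuclei they expel and hands over iron. VCAM1 on the macrophage binds an integrin on the erythroblast. MERTK and AXL are receptor kinases that recognise dying cells and expelled nuclei through bridging proteins bound to exposed phosphatidylserine. The iron comes from old red cells: CD163 takes up haemoglobin bound to haptoglobin, the transcription factor SPIC is induced by haem in macrophages that recycle it, and transferrin, encoded by Trf, carries iron in plasma.

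Levels are in CPM, which counts the reads of a gene for every 1000000 reads assigned to listed genes. Replicates 1, 2 and 3 had 5150020, 40149274 and 37604930 assigned reads, as recovered from the CPM. Where no read was seen, up to 3 reads remain possible, equal to 0.583, 0.0747 and 0.0798 CPM in the same order. Intervals given with a value are 95% exact counting intervals and cover counting error only. Reads may be copies of fewer molecules: genes with 1 to 10 reads numbered 1126, 198 and 75 in replicates 1, 2 and 3, while 538, 295 and 578 genes had 0 reads. The intervals of replicates 2 and 3 may thus be too narrow, and results between libraries are also given with the reads of both scaled down to the total of replicate 1, a choice made after seeing the data.

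Markers of the labelled cell type took few reads beside neutrophil genes. The 20 resident macrophage markers, of which 7 are members, summed to between 278 and 307 CPM per library, with Marco and Folr2 at 0 in replicates 1 and 3. By the test used for the members, 6 of these markers were above and 9 below 10 CPM, beside 58.8% and 28.3% of all tested genes. The 12 late neutrophil markers summed to between 18.8% and 22.5% of all reads, led by Ngp at 55067 ± 4306 CPM and S100a9 at 45313 ± 7554 (SD, n = 3), which encode a granule protein and a calprotectin subunit. In bulk RNA, fewer cells of a type and less RNA per cell cannot be told apart, and the part of neutrophil RNA in the members' levels was not tested.

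Promoter sequences show where the members' genes differ in their regulatory letters. RefSeq promoters on GRCm38.p6 were found for 6 of the 10 members, and 4 are shown, 250 bases up to the transcript start, 5′ to 3′ on the gene's strand: those of Axl and Mertk, receptors of 1 family, and those of Spic and Mrc1, the 2 members with a match to the second motif below. Capitals mark matches, on either strand, to the GC box GGGCGG, a site of SP1-type factors, and to AGGAAGT, a site of PU.1-type ETS factors, the family that SPIC belongs to. The AP-1 site TGACTCA, also searched, was in none of these 4 windows and in 4.46% of all windows.
Axl (chr7:25788734-25788983, minus strand): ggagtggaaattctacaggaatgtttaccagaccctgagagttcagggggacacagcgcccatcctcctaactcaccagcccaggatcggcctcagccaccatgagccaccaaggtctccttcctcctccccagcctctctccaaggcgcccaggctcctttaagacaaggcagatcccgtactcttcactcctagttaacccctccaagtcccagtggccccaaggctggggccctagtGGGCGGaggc
Mertk (chr2:128698665-128698914, plus strand): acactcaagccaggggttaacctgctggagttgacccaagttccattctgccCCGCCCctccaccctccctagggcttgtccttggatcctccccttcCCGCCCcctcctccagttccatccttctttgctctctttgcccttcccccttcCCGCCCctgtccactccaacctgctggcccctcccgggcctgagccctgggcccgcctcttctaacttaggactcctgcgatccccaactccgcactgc
Spic (chr10:88683024-88683273, minus strand): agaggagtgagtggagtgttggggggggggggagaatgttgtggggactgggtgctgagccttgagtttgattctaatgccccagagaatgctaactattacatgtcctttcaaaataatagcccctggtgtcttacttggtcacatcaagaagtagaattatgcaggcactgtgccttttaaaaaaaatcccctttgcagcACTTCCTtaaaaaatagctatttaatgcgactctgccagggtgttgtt
Mrc1 (chr2:14229164-14229413, plus strand): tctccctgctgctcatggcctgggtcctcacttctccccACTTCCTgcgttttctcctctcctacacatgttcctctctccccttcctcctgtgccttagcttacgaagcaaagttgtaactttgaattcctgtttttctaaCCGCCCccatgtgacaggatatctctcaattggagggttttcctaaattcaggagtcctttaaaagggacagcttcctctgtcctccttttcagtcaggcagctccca
The Mertk window held 3 GC boxes, the Axl and Mrc1 windows 1 each and the Spic window 0. AGGAAGT was present 1 time each in the Spic and Mrc1 windows and absent from the Axl and Mertk windows. The Spic window lies inside the annotated span of its gene (88674772 to 88685015), so the transcript start used there is not the outermost one. Of the windows not shown, that of Cd163 and 2 of the 3 of Palld held none of the 3 motifs, and the third of Palld held 1 GC box and 1 AP-1 site. Axl, Mertk, Cd163 and Palld shared 1 order of RNA values over the libraries, though their GC box matches differed. By the counting intervals of the ratio between libraries, only Axl differed in every pair. Cd163 differed in none, and Mertk and Palld did not differ between replicates 1 and 2. None of the windows of these 4 genes held AGGAAGT, and Spic and Mrc1, which held it, had other orders of values. Spic did not differ between replicates 2 and 3, nor Mrc1 between replicates 1 and 3. With 6 genes and 3 libraries, a link between matches and order was not tested. Of 32851 promoter windows of this length, 32.7% held the GC box and 7.69% held AGGAAGT. The 2 motifs share no position in these windows, and a match is a description of letters, not a bound site.

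The RNA of the gate genes was unequal. Adgre1, the gene of the adhesion receptor F4/80 (chromosome 17, 57358691 to 57483527, plus strand, GRCm38), was at 18.6, 26.5 and 21.4 CPM in replicates 1, 2 and 3, from 96, 1063 and 805 reads. It was thus above 10 CPM in every library, highest in replicate 2 and lowest in replicate 1. Its mean of 22.2 ± 3.97 CPM (SD, n = 3) was 1.06 over 10 CPM on the log2(CPM + 1) scale (SE 0.18, limma adjusted p = 9.85e-06). Siglec1, the gene of the sialic acid-binding receptor CD169 (chromosome 2, 131069220 to 131086765, minus strand), was at 0.388, 3.66 and 4.57 CPM. Those values rest on 2, 147 and 172 reads, and all lie below 10 CPM, with replicate 1 under the others and below the limit of 0.583 CPM there. The log2 level was -1.74 (SE 0.35, limma adjusted p = 9.58e-05), and -1.11 without replicate 1. All 3 libraries were sorted on CD169 protein, and Siglec1 RNA in replicate 1 rested on 2 reads, with an interval of 0.0470 to 1.40 CPM.

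Vcam1, the adhesion molecule of the island (chromosome 3, 116109949 to 116129688, minus strand), took the most reads of any member in each library. It was at 72.2, 56.2 and 94.6 CPM in replicates 1, 2 and 3, a mean of 74.3 ± 19.3 (SD, n = 3) which lay 2.74 over 10 CPM on the log2 scale (SE 0.14, limma adjusted p = 3.69e-14). Its lowest library was thus replicate 2, where Adgre1 was highest. An annotated antisense gene, Gm43109, overlaps 61 bases of its exons, and the strand setting of the counting was not given in the sources used here. Palld, the gene of palladin, an actin-binding scaffold protein (chromosome 8, 61511433 to 61902690, minus strand), was at 3.50 and 2.59 CPM in replicates 1 and 2, from 18 and 104 reads, and at 0 reads in replicate 3. By the lower bounds of the intervals, Palld was at least 32.1-fold higher in replicate 1 and at least 25.9-fold higher in replicate 2 than in replicate 3, and at least 4.40-fold and 3.05-fold with the reads scaled down. Of 9377 genes with at least 100 reads in replicate 2, only 6 had 0 reads in replicate 3, Palld among them. Its log2 level was -2.12 (SE 0.37, limma adjusted p = 1.89e-05), and -1.45 without replicate 3.

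The receptors of engulfment differed in level but shared an order over the libraries. Axl (chromosome 7, 25757273 to 25788705, minus strand) was at 22.3, 16.9 and 11.2 CPM, and Mertk (chromosome 2, 128698956 to 128802894, plus strand) at 1.55, 0.996 and 0.479 CPM, from 8, 40 and 18 reads. Both had their highest value in replicate 1 and their lowest in replicate 3. For Mertk, replicates 1 and 2 did not differ beyond counting error (1.56-fold, interval 0.630 to 3.38). Axl was 0.65 over 10 CPM on the log2 scale (SE 0.20, limma adjusted p = 0.00589), a call that was lost without replicate 1 (adjusted p = 0.0664) and with no filter on low genes (0.0612). Mertk was below, at a log2 level of -2.49 (SE 0.34, limma adjusted p = 5.36e-07).

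The scavenger receptors were both below 10 CPM. Cd163 (chromosome 6, 124304656 to 124330527, plus strand) was at 4.08, 3.06 and 3.03 CPM, the smallest ratio of highest to lowest library among the island genes (1.35-fold, from 21, 123 and 114 reads). Its log2 level was -1.33 (SE 0.27, limma adjusted p = 0.000122). Mrc1, the gene of the mannose receptor CD206 (chromosome 2, 14229392 to 14332057, plus strand), was at 2.72, 5.80 and 3.35 CPM and so had its highest value in replicate 2, as Adgre1 did. The log2 level was -1.20 (SE 0.28, limma adjusted p = 0.000425).

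The haem-induced transcription factor gene and the iron carrier gene were low as well. Spic (chromosome 10, 88674772 to 88685015, minus strand) was at 3.69, 1.82 and 2.10 CPM, highest in replicate 1, with a log2 level of -1.67 (SE 0.30, limma adjusted p = 2.09e-05). Trf (chromosome 9, 103204001 to 103230444, minus strand) was at 1.55, 2.09 and 0.878 CPM, highest in replicate 2, with a log2 level of -2.16 (SE 0.32, limma adjusted p = 1.85e-06). In the annotation, 2108 bases of the Trf exons are shared with Gm20425, an overlapping gene on the same strand that the files do not list, so the reads of the Trf locus may have been split.

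**Figure D1:**
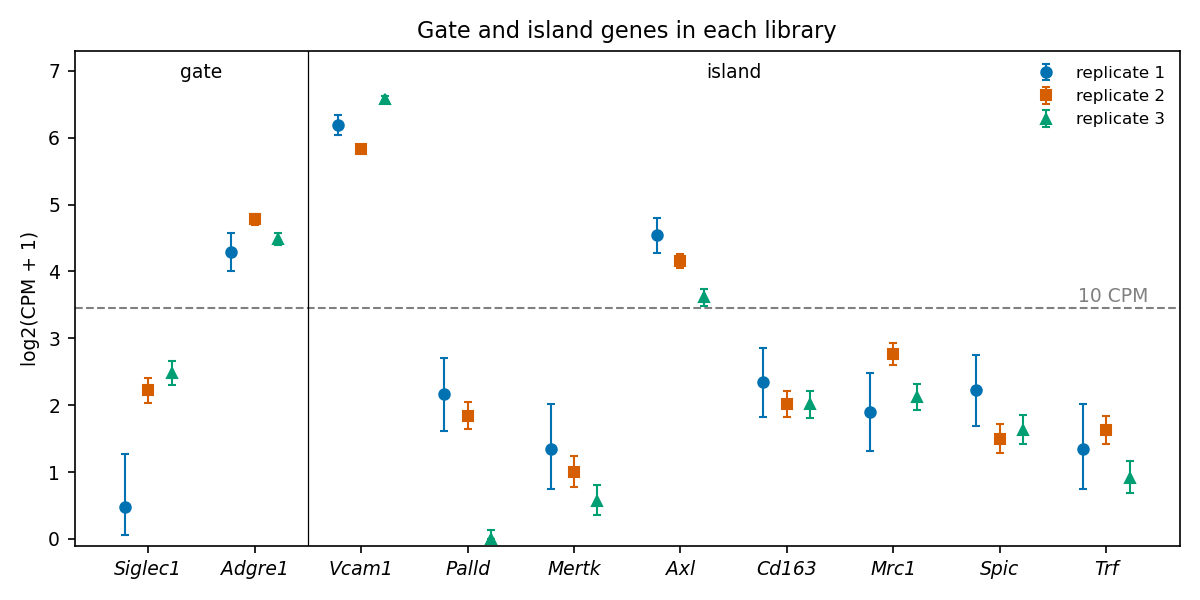
Level of each member as log2(CPM + 1), where 1 is the pseudocount, in replicates 1, 2 and 3, with 95% exact counting intervals, and gate genes left of the vertical line. The dashed line is 10 CPM: Adgre1, Vcam1 and Axl lie above it in every library, and Siglec1 in replicate 1 and Palld in replicate 3 lie far under their values in the other libraries.

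Of the 10 members, 3 were called above 10 CPM and 7 below. Over all 11123 genes tested, 58.8% were above and 28.3% below, and the median of mean CPM was 3.13 for the members against 19.7 for all listed genes. The members were chosen by name with earlier results known, so the counts are a description. Per kb of exon, the order of the members' mean levels was Vcam1 (8.38 ± 2.18 CPM per kb), Adgre1 (6.85 ± 1.23), Axl (3.34 ± 1.10), Spic (0.660 ± 0.263), Mrc1 (0.621 ± 0.256), Cd163 (0.621 ± 0.109), Trf (0.454 ± 0.183), Siglec1 (0.402 ± 0.308), Mertk (0.233 ± 0.124) and Palld (0.197 ± 0.176; SD, n = 3). The ranges over libraries of Vcam1 and Adgre1 overlapped, so these 2 did not differ beyond their spread. Adgre1 lay above Axl, and Axl above Spic, in 3 of 3 libraries with no overlap. From Spic down, each gene's range overlapped that of the next, so neighbours in the order did not differ beyond their spread. The ranges of Spic, Mrc1 and Cd163 lay wholly above those of Mertk and Palld.

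Gate and island genes did not share 1 order over the libraries. Of the 10 members, 5 were highest in replicate 1 (Spic, Palld, Mertk, Axl and Cd163), 3 in replicate 2 (Adgre1, Trf and Mrc1) and 2 in replicate 3 (Siglec1 and Vcam1), beside 32.1%, 19.7% and 48.2% of all tested genes. The gate genes themselves were both lowest in replicate 1 but had their highest values in different libraries. The next comparisons set the reads of 2 libraries against each other, so they compare those libraries, with no replicate check. A gene is called different where the interval of its CPM ratio excludes 1.

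In replicate 1 against replicate 2, Siglec1 (0.106-fold, interval 0.0127 to 0.390), Adgre1 (0.704-fold, 0.565 to 0.868) and Mrc1 (0.468-fold, 0.252 to 0.802) were lower. Vcam1 (1.29-fold, 1.15 to 1.44), Spic (2.03-fold, 1.16 to 3.40) and Axl (1.32-fold, 1.07 to 1.61) were higher, and the other 4 were called neither way. Both gate genes and the island gene Mrc1 were thus lower in replicate 1, while 3 of 8 island genes were higher. Among all tested genes, 24.8% were higher and 26.2% lower in this pair, so 3 of 10 members called each way is near the background.

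Replicate 1 against replicate 3 gave another division. Spic (1.76-fold, 1.005 to 2.93), Palld, Mertk (3.25-fold, 1.22 to 7.84) and Axl (1.99-fold, 1.60 to 2.45) were higher in replicate 1, against 23.3% of all tested genes. Siglec1 (0.0849-fold, 0.0102 to 0.311) and Vcam1 (0.763-fold, 0.684 to 0.849) were lower, against 39.6% of all tested genes. The sole gene lower in replicate 1 than in both other libraries was Siglec1 (21.5% of all tested genes), and those higher than in both were Spic and Axl (14.2%).

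The 2 deep libraries also differed in the members. In replicate 2 against replicate 3, Adgre1 (1.24-fold, 1.13 to 1.36), Axl (1.51-fold, 1.33 to 1.71), Mrc1 (1.73-fold, 1.39 to 2.17), Mertk (2.08-fold, 1.17 to 3.86), Trf (2.38-fold, 1.58 to 3.68) and Palld were higher, and Vcam1 was lower (0.593-fold, 0.563 to 0.626). Siglec1 (0.800-fold, 0.638 to 1.003), Spic and Cd163 were called neither way. The background was 26.4% higher and 49.3% lower in replicate 2.

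With the reads of replicates 2 and 3 scaled down to the total of replicate 1, fewer differences between libraries were called. Kept were Siglec1, Adgre1 and Mrc1 lower and Vcam1 higher in replicate 1 than in replicate 2, and Siglec1 and Vcam1 lower and Palld and Axl higher in replicate 1 than in replicate 3. Between replicates 2 and 3, Vcam1 was still lower in replicate 2 (0.593-fold, 0.511 to 0.688), and Palld and Axl were still higher. All calls of Spic, Mertk and Trf were lost, as were that of Axl between replicates 1 and 2 and those of Adgre1 and Mrc1 between replicates 2 and 3. Vcam1 was thus the member whose calls held in all 3 pairs. At this depth 17.2% of all tested genes were higher and 20.7% lower in replicate 1 than in replicate 2, 17.9% and 33.8% in replicate 1 than in replicate 3, and 10.7% and 26.0% in replicate 2 than in replicate 3.

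**Figure D2:**
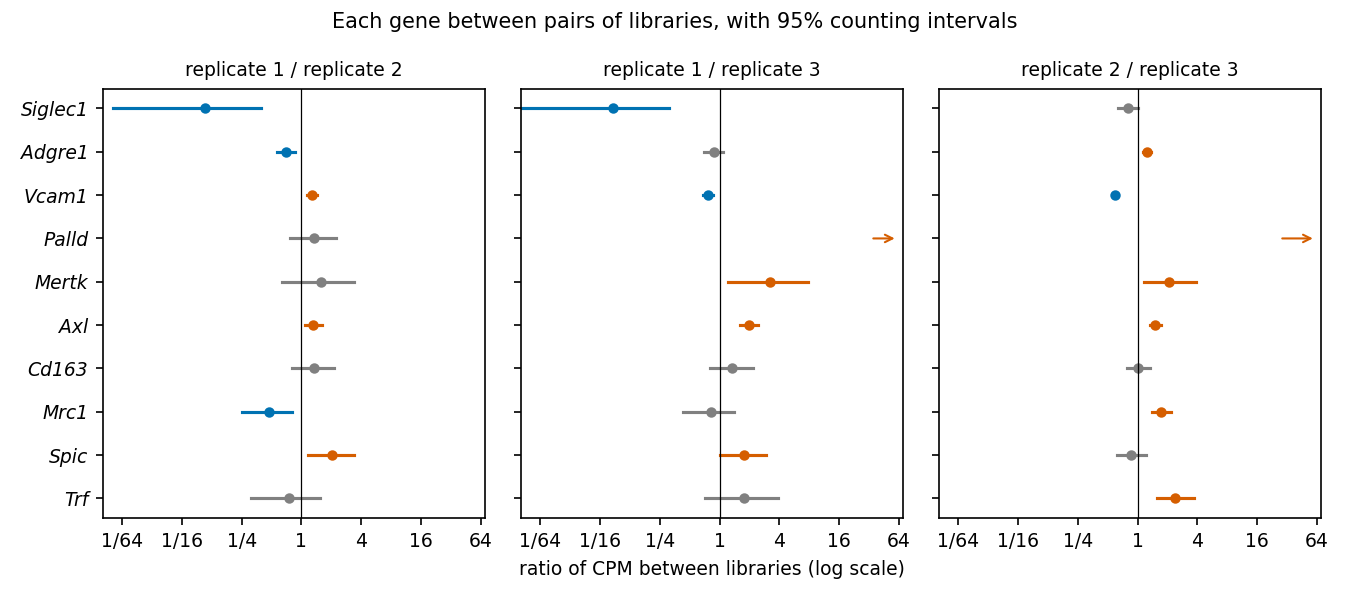
Ratio of CPM between each pair of libraries for each member (log axis), with 95% exact counting intervals; blue marks lower, orange higher and grey neither. Arrows start at the lower bound for Palld, whose ratio to 0 reads has no upper limit; Siglec1 lies left of 1 and Axl right of 1 in both pairs with replicate 1.

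Set against Adgre1 within each library, the members need no scaling between libraries. Vcam1 had 387.5, 212 and 442 reads per 100 Adgre1 reads in replicates 1, 2 and 3, so the ratio of these 2 abundant members was lowest in replicate 2. Siglec1 had 2.08, 13.8 and 21.4 reads per 100 Adgre1 reads, and differed in all 3 pairs of libraries, with replicate 1 at 0.151-fold of replicate 2 (interval 0.0178 to 0.571). Axl had 119.8, 63.9 and 52.4, and also differed in all 3 pairs. Cd163 had 21.9, 11.6 and 14.2 and Mrc1 14.6, 21.9 and 15.7 reads per 100 Adgre1 reads. For Mrc1 and Trf, no interval between replicate 1 and another library excluded 1. Relative to Adgre1, 5 members were higher in replicate 1 than in replicate 2 (Vcam1, Spic, Palld, Axl and Cd163) and 1 was lower (Siglec1). Of all tested genes 52.8% were higher and 2.98% lower by the same measure, in a pair where Adgre1 itself was lower in replicate 1, so 5 of 9 is near the background. Against replicate 3, 4 members were higher in replicate 1 (Spic, Palld, Mertk and Axl; 25.4% of all tested genes) and 1 was lower (Siglec1; 16.4%). Between replicates 2 and 3, 4 were higher in replicate 2 (Palld, Trf, Axl and Mrc1; 10.4%) and 3 lower (Siglec1, Vcam1 and Spic; 69.5%). These intervals rest on the full reads of replicates 2 and 3.

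**Figure D3:**
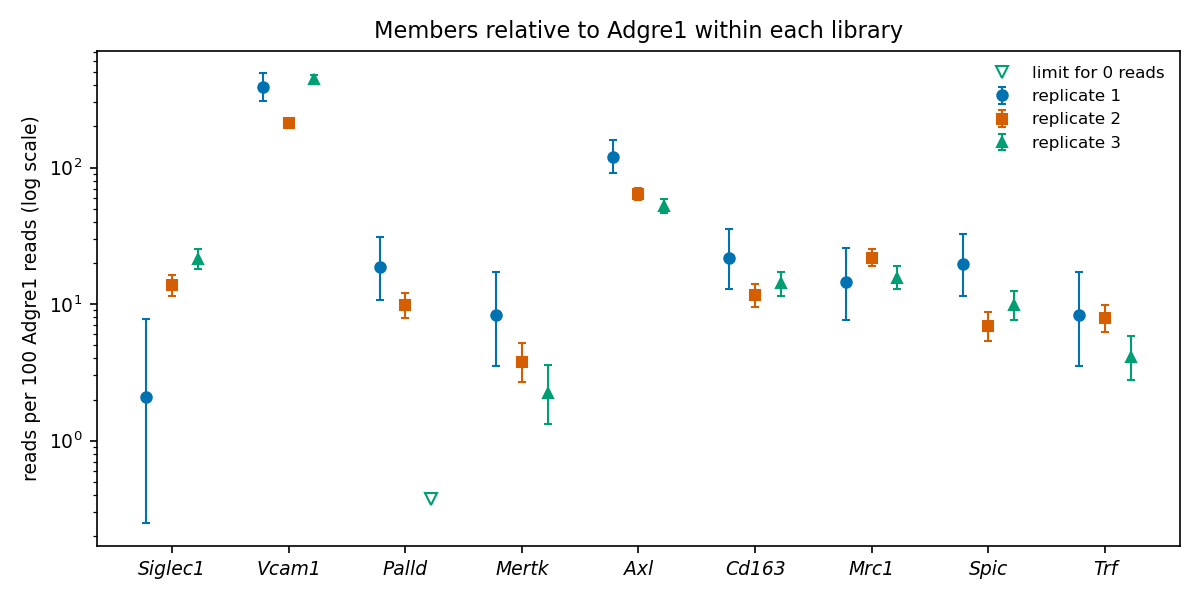
Reads of each other member per 100 Adgre1 reads of the same library (log axis), with 95% exact counting intervals, and the open triangle at the limit that 0 reads allow. Vcam1 lies between 212 and 442 and Siglec1 in replicate 1 at 2.08, from 2 reads.

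Summed per kb of exon, the 8 island genes stood at 2.73, 1.47 and 2.06 times the 2 gate genes in replicates 1, 2 and 3, a mean of 2.08 ± 0.633 (SD, n = 3). In summed CPM not divided by length, island genes came to 112, 89.4 and 116 CPM and gate genes to 19.0, 30.1 and 26.0 CPM. The gate sum was thus highest and the island sum lowest in replicate 2. Vcam1 made up 64.7%, 62.8% and 81.8% of the island sum, and Adgre1 made up 98.0%, 87.9% and 82.4% of the gate sum, so the ratio of sums was mostly that of these 2 genes. Without Vcam1, the other 7 island genes summed to 39.4, 33.3 and 21.1 CPM and their ratio to the gate was 2.07, 1.10 and 0.811. Replicate 3, with the highest island sum, then had the lowest. The direction did not hold under every definition: the mean log2 ratio of island to gate CPM was 2.09 for the sums, -2.33 with Itgam, the gene of CD11b in the sort gate, added to the gate sum, and -1.14 as a difference of median log2 levels. Of the Itgam exon bases, 3450 are shared in the annotation with Gm49368, an overlapping gene on the same strand that the files do not list. The reads of the Itgam locus may thus have been split. No test of the ratio was made: with 3 libraries an exact sign-flip permutation test cannot give a p below 0.25.

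The members' spread over libraries was set beside that of genes of like level. The 7 members with a mean of 1 to 10 CPM had a median range between highest and lowest library of 0.79 on the log2(CPM + 1) scale, beside 0.83 for all 3204 tested genes of that level, and 3 of the 7 exceeded that value. Siglec1 (2.01) and Palld (2.17) had the widest ranges, and Cd163 the narrowest (0.33). The 3 members between 10 and 100 CPM had ranges of 0.48 (Adgre1), 0.74 (Vcam1) and 0.93 (Axl), each over the median of 0.45 for all 5590 tested genes of that level.

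The genes most like the 2 leading members in their course over the libraries were sought among the 7282 genes whose mean reached 10 CPM. For Adgre1 they were Utrn (29.7, 40.8 and 33.6 CPM), Pigv and Ralgps1, with root mean square differences of 0.016, 0.021 and 0.021 in centred log2(CPM + 1). For Vcam1 they were Cep63 (14.2, 10.9 and 19.0 CPM), Rbm7 and Btrc, at 0.0066, 0.013 and 0.014. With 3 libraries such likeness is common: 297 genes lay within 0.1 of Adgre1 and 177 within 0.1 of Vcam1.

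The other pathway genes give the setting of the members. Of 13 listed genes of island adhesion and support, 4 were above 10 CPM and 7 below, beside 58.8% and 28.3% of all tested genes. Above were Maea at 138 ± 22.3 CPM, the gene of the erythroblast macrophage protein, Vcam1, Rb1 (63.2 ± 11.5), the retinoblastoma gene, and Itgav (18.7 ± 5.26), an integrin chain. Epor, the erythropoietin receptor gene, was lowest of those called below at 1.49 ± 0.553 CPM, followed by Il18 at 1.86 ± 1.09 (SD, n = 3).

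Of 16 listed engulfment genes, 5 were above 10 CPM and 9 below, beside 58.8% and 28.3% of all tested genes. The highest were Rac2 (2807 ± 128 CPM), Dock2 (403 ± 73.6) and Elmo1 (177 ± 26.4), which drive actin movement in leukocytes in general. C1qa, a complement chain that marks resident macrophages, was at 27.6, 16.3 and 12.3 CPM, the same order over the libraries as Axl. Genes of bridging proteins of the receptor family of AXL and MERTK were low, with Pros1 at 0.400 ± 0.389 CPM and Gas6 at 1.01 ± 0.676 (SD, n = 3). In this list 10 of 16 genes were highest in replicate 1, against 32.1% of all tested genes. Haem and iron genes had 11 of 18 highest there and resident macrophage markers 10 of 20, so this was not particular to engulfment genes. Adhesion and support genes had 6 of 13 and genes of the erythroblast side 5 of 14. The 32.1% is not matched on level, and replicate 1 was the shallowest library.

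Of 18 listed haem and iron genes, 11 were above 10 CPM and 5 below, shares near the 58.8% and 28.3% of all tested genes. Those below included the members Spic, Cd163 and Trf. Fth1 (871 ± 63.1 CPM) and Ftl1 (624 ± 115), the ferritin chains, Tcn2 (419 ± 26.1), the transcobalamin gene, and Slc40a1 (184 ± 9.45), the iron exporter ferroportin, were highest (SD, n = 3). Tcn2 is counted in this list, though transcobalamin carries cobalamin and not haem or iron. Nr1h3, which encodes the nuclear receptor LXR alpha of macrophages, was lowest of those called below at 1.37 ± 0.192 CPM. Slc40a1 ranged from 175 to 194 CPM over the libraries.

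Genes of the erythroblast side of the island were also read. Of 14 listed, 9 were above 10 CPM and 4 below, shares near the 58.8% and 28.3% of all tested genes. Hbb-bs was at 321 ± 123 CPM, Hba-a1 at 137 ± 66.0, Epb41 at 131 ± 25.1 and Hba-a2 at 99.1 ± 39.3 (SD, n = 3). Epb41 was at 106, 130 and 156 CPM in replicates 1, 2 and 3, the reverse of the order of Hba-a1 (207, 127 and 76.3). The 9 genes above also include Itga4 and Itgb1, and which cells the RNA of this list came from was not tested. The globin genes are near-identical pairs between which reads can be split. Rhag (1.72 ± 1.31) and Gata1 (2.59 ± 2.39) were below, and Gata1 had 0 reads in replicate 1.

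The sums of some marker lists of other cells moved between the libraries together with some members. In replicate 1, where Spic and Axl were highest and Siglec1 lowest, the 12 erythroid markers summed to 1060 CPM against 617 and 612 in replicates 2 and 3. That sum was led by globin genes: Hbb-bs was at 462, 244 and 255 CPM and Hba-a1 at 207, 127 and 76.3 in replicates 1, 2 and 3. The erythroid list did not move as a whole, with 6 genes highest in replicate 1, 4 in replicate 2 and 2 in replicate 3. Slc4a1 was at 50.7, 49.3 and 71.5 CPM in the same order. In replicate 1 the 5 basophil and mast cell markers, led by Prss34 and Mcpt8, summed to 971 CPM against 135 and 137. The 5 megakaryocyte and platelet markers, led by Itga2b and Gp1bb, came to 67.4 against 17.8 and 15.5 CPM, with Pf4 at 0 in replicates 2 and 3. The 8 eosinophil markers, led by Prg2 and Epx, had the same order over the libraries as Siglec1, with sums of 577, 968 and 1343 CPM. The part of these cells in the members' differences was not tested.

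The remaining lists varied less or stayed low. The 6 primary granule markers, led by Mpo and Elane, summed to between 5443 and 7274 CPM and were all highest in replicate 1. The 8 monocyte markers, led by Ly6c2 and Treml4, came to between 956 and 1175 CPM, with Vcan at 0 in every library, Cx3cr1 at 0 in replicates 1 and 3 and Ace at 0 in replicate 1. The 7 B lymphoid markers, led by Ighm and Cd79b, came to between 202 and 249.9 CPM. The 5 stromal and endothelial markers, led by Pecam1 and Col1a1, came to between 15.3 and 18.8 CPM, with Kdr at 0 in every library, and the 4 dendritic markers, led by Flt3 and Clec9a, to between 4.02 and 7.77 CPM. Of the macrophage list itself, led by Vcam1 and Csf1r, 10 genes were highest in replicate 1, 5 in replicate 2 and 5 in replicate 3.

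**Figure D4:**
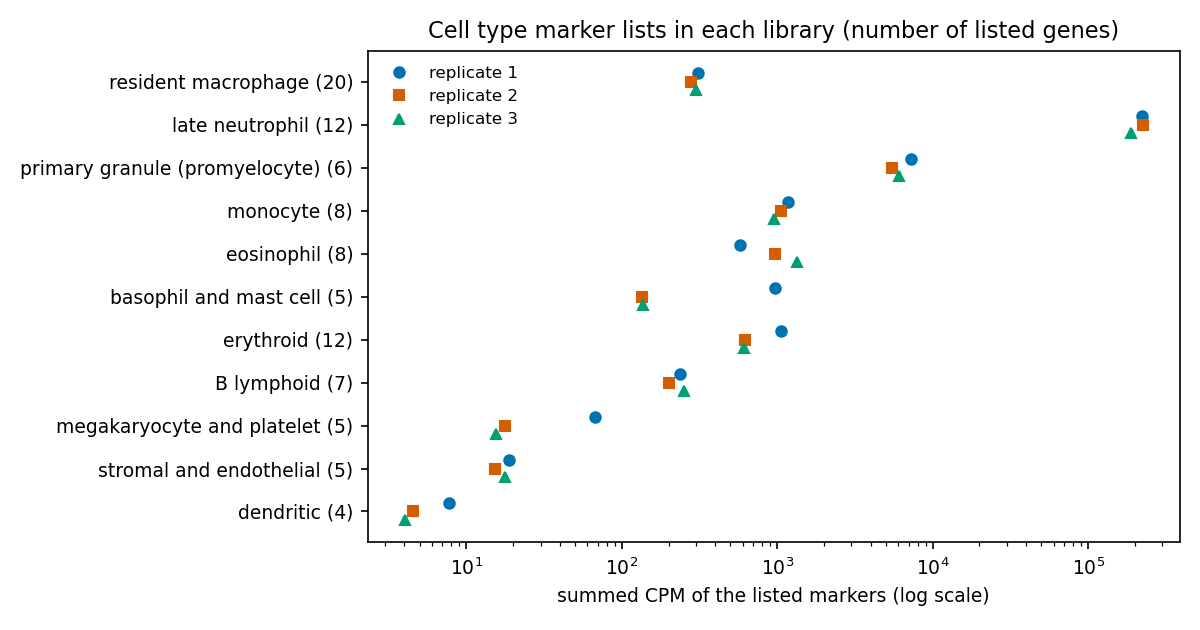
Summed CPM of each cell type marker list (log axis) in replicates 1, 2 and 3, with the number of listed genes in brackets. The late neutrophil list lies far right of the resident macrophage list (278 to 307 CPM), and the basophil, erythroid and megakaryocyte lists are highest in replicate 1.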

How the data were processed

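Libraries of messenger RNA (3, from 1 sorted marrow population) were read on a NextSeq500 sequencer, per the labels' protocols. The deposited values were CPM, which the authors made with FastQC, STAR, featureCounts and edgeR on the builds mm10 and GRCh38, per the submitters' processing notes. Versions, annotation and strand setting are not given in the sources used here. Of 11463 entries per file, 44 that repeated a gene were dropped. CPM then summed to 1000000 per library, and 100% of values were whole reads within 0.01 reads.

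The members and gene lists were chosen with earlier results of these data known. Genes with at least 10 recovered reads (11123) were tested with limma 3.58.1 in R 4.3.3: an intercept on log2(CPM + 1), pseudocount 1, against 10 CPM, two-sided, with trended moderation and Benjamini-Hochberg adjustment, called at an adjusted p under 0.05. Alternatives used edgeR 4.0.16, whose quasi-likelihood F test was computed from the fit because its function takes no design with 1 column, and DESeq2 1.42.0. The 3 tests and the intervals were tested on simulated data. Library ratios have Clopper-Pearson intervals on recovered reads (scipy 1.17.1). Exon lengths and positions came from GENCODE for GRCm38, with a length for 99.9% of genes. Named genes were the members, Itgam and Cx3cr1; in each pathway list up to 4 of highest mean called above and 2 of lowest mean called below; 2 of each marker list; and 3 genes most like Adgre1 and Vcam1. Itgam and Cx3cr1, the other gate genes, were at 503 ± 55.1 CPM (SD, n = 3) and at 0, 0.423 and 0 CPM in replicates 1, 2 and 3.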

Additional observations from a re-analysis of the deposited data

How the results depend on the processing

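The calls of the 10 members against 10 CPM were recomputed under 12 alternatives each with limma, edgeR or DESeq2, and 114 of 120 kept both direction and side of the threshold. The exceptions were Adgre1 at a level of 20 CPM, Axl without replicate 1, with no filter and at 20 CPM, where its log2 level turned to -0.29 (limma adjusted p = 0.194), and Cd163 and Mrc1 at 5 CPM. Of the other named genes with a call, Itgav (-0.13) and C1qa (-0.16) changed sign at 20 CPM, C1qa lost its call with no filter, and Cx3cr1 and Pros1 lost theirs in edgeR on recovered reads. Members above 10 CPM then numbered 1 at a level of 20 CPM in place of 3, and between 2 and 3 when a replicate was left out. All genes below the level numbered 1870 at 5 CPM in place of 3153. The mean log2 ratio of the summed island to gate CPM was 2.09, and 1.01 per kb of exon, 0.30 without Vcam1, -2.33 with Itgam among the gate genes and -1.14 as a difference of median log2 levels. The sign turned in the last 2 of these. Members higher in replicate 1 than in both others numbered 2, and 1 with 99% intervals and 0 at equal depth; those lower numbered 1, and 2 with replicates 2 and 3 added together. The equal depth and the reads per Adgre1 read, which gave 3 higher and 1 lower, were chosen after seeing the data. No paired analysis was possible because there was 1 group. Replicate 1, the shallowest library, limits every value with few reads there.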
